A study of Mus musculus with 6 samples.

Results

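DNA repair genes were examined in undifferentiated mouse embryonic stem cells (mESCs) with and without *Alkbh1*, the gene of a 2-oxoglutarate-dependent dioxygenase related to the bacterial repair enzyme AlkB. A list of 44 repair genes was taken by name from the table of all probe sets, where older names were resolved through gene identifiers. Of these, 43 were measured (19 of base excision repair, 5 of mismatch repair, 17 of double-strand break repair and 2 that deal with alkylated DNA), among 15375 named genes. *Neil2* had no named probe set. A gene with several probe sets, the groups of short oligonucleotides that report a transcript, is given by the one with the highest mean over all arrays.

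The study hybridised RNA from 3 WT and 3 *Alkbh1*-/- mESC samples, all on the C57BL/6 background, at passage 8 and day 0 of differentiation, untreated, in medium with leukemia inhibitory factor. Both genotypes came from littermate embryos of heterozygous matings and were grown on irradiated CF-1 mouse embryonic fibroblasts, so that fibroblast RNA could enter every sample. The arrays of a genotype share a single code in the labels. In its differentiation experiment, the paper refers to the WT and *Alkbh1*-/- mESCs as both cell lines. For the arrays, neither the labels nor the paper states whether a code stands for 1 cell line or whether its arrays come from separate cultures. Genotype and cell line therefore cannot be told apart. No single-array values were analysed here. The values used are the authors' mean over all 6 arrays for each probe set, and their geometric mean intensity in each genotype for the probe sets of a class comparison. The second kind of value exists for 4257 of 33142 probe sets (12.8%), those that passed a filter and the test of the class comparison. Every difference below is therefore a difference between 2 deposited means of 3 arrays each, with no error and no test made here. The smallest such difference was 0.37 on the log2 scale. A gene without a mean per genotype may differ by any amount.

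Cells repair their DNA by routes that depend on the lesion. In base excision repair a glycosylase removes a damaged base, an endonuclease cuts the backbone, and a polymerase and a ligase fill the gap. Mismatch repair corrects errors left by replication. Double-strand breaks are joined directly or repaired from the sister chromatid by homologous recombination, which embryonic stem cells use heavily because they divide fast and spend much of their cycle in S phase. ALKBH1 itself has been discussed as an enzyme of alkylated DNA and of abasic sites, and the genes below are those of the repair routes such lesions and their intermediates can enter.

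The targeted gene was looked at first. *Alkbh1* (1434660_at) had a mean intensity of 761 in WT and 25.7 in *Alkbh1*-/- mESCs, a log2 difference of −4.89. Its other probe set, 1438681_at, read 120.0 and 34.6. Both were lower in the samples labelled *Alkbh1*-/-. The markers of the cell type were looked up as well, as a description of levels at different probes. All 8 stem cell markers reached the median of the whole table (6.31), with mean log2 values over all arrays of 12.64 for *Pou5f1* and 12.66 for *Sox2*, while 0 of 6 markers of extraembryonic endoderm did. Of the 8 stem cell markers 4 had a mean per genotype (50.0%, beside 14.9% of all named genes), and these went both ways. *Nanog* (log2 difference 1.10), *Esrrb* (0.55) and *Zfp42* (0.41) were higher in *Alkbh1*-/- mESCs, and *Utf1* (−0.49) was higher in WT mESCs. Of the 6 endoderm markers 2 had one (33.3%, beside the same 14.9%), *Sox7* (0.88) and *Dab2* (−0.92), again in both directions. Of 12 fibroblast genes, 11 reached the median of the whole table too, so that this level does not separate stem cell from fibroblast RNA.

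Of the 43 repair genes, 3 had a mean per genotype, *Apex2*, *Aptx* and *Rad52*, which is 6.98%. Among all named genes the share was 14.9%. A single repair gene, *Apex2*, was past 1.5-fold (a log2 difference of 0.585) and higher in *Alkbh1*-/- mESCs, where 4.75% of all named genes were. None of the 43 was past 1.5-fold and higher in WT mESCs, where 4.97% of all named genes were. These shares are descriptions and were not tested against each other. How often a gene had a mean per genotype depended on its brightness. When all genes were divided into 4 equal groups by mean value, from the dimmest to the brightest, the share was 9.13%, 21.7%, 17.8% and 11.1%. Of the repair genes, 0, 6, 21 and 16 fell in these groups, of which 0, 1, 2 and 0 had a mean per genotype. Over all 83 probe sets of the 43 genes, 5 were in the class comparison (6.02%), beside 12.8% of all probe sets.

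**Figure D1:**
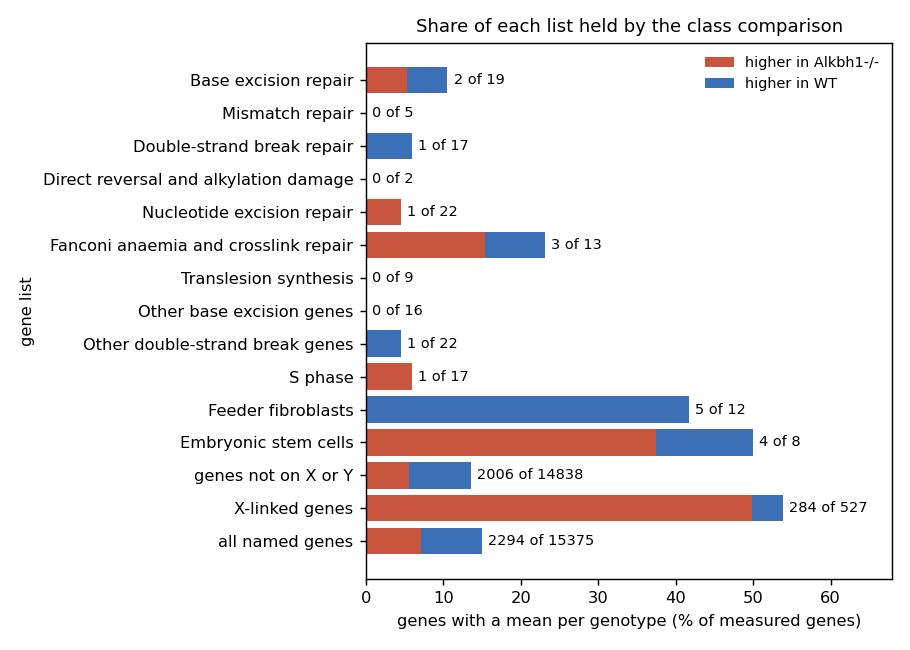
Bars give the percentage of the measured genes of each list that have a mean per genotype in the class comparison, split by the genotype with the higher mean; the label beside a bar gives the counts. The lists of whole pathways lie at or below 10.5%, apart from the 3 of 13 Fanconi anaemia genes, and X-linked genes stand at 53.9%.

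*Apex2*, which encodes a second abasic-site endonuclease with a strong exonuclease activity, was higher in *Alkbh1*-/- mESCs. Its brightest probe set (1424322_at) had a mean intensity of 158 in WT and 256 in *Alkbh1*-/- mESCs, a log2 difference of 0.70 and a fold of 1.62. The gene's other probe set, 1425954_a_at, read 109.6 and 167.6, a log2 difference of 0.61. Both probe sets thus gave a higher mean in *Alkbh1*-/- mESCs.

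*Apex2* is also the sole member on the X chromosome, and X-linked genes differed in the same direction. Of 527 X-linked genes, 284 (53.9%) had a mean per genotype, 263 of them higher in *Alkbh1*-/- mESCs, with a median log2 difference of 0.75. The lower and upper quartiles of these differences were 0.59 and 0.99, so that *Apex2* lay inside the middle part of the X-linked distribution, with 171 genes above it and 112 below. Of 14838 genes on neither X nor Y, 2006 (13.5%) had a mean per genotype. On the Y chromosome, *Eif2s3y* read 751 in WT and 14.9 in *Alkbh1*-/- mESCs, and *Ddx3y* 412 and 14.1. *Xist*, the RNA that silences an X chromosome, had no mean per genotype and a mean log2 value over all arrays of 5.36. The part of the sex chromosomes in the difference of *Apex2* was not tested. These X- and Y-linked genes differed between the same groups of samples as the genotype, so that genotype and sex chromosomes cannot be told apart. On the other chromosomes, 2 of 42 repair genes (4.76%) had a mean per genotype, both higher in WT mESCs.

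*Aptx*, the gene of aprataxin, which removes the adenylate that an aborted ligation leaves on a DNA end, had a mean intensity of 234 in WT and 159.5 in *Alkbh1*-/- mESCs (1450921_at, its only probe set). The log2 difference was −0.55 and the fold 1.46, below the 1.5-fold mark.

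The other 17 base excision genes are known here only by their mean over all arrays. Those means belong to different probes and are not compared between genes. For the glycosylases, which recognise and cut out damaged bases, they were 10.50 for *Ung* (uracil), 5.83 for *Ogg1* (oxidised guanine), 7.90 for *Mutyh* (adenine opposite oxidised guanine), 8.46 for *Mpg* (alkylated purines), 7.51 for *Nthl1*, 7.45 for *Smug1*, 6.53 for *Neil1* and 5.92 for *Neil3* on the log2 scale. *Ogg1* and *Neil3* are the 2 of the 43 repair genes below the median of the whole table. *Apex1*, the main abasic-site endonuclease, had a mean log2 value of 11.82.

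Gap filling and sealing were represented by *Polb*, the repair polymerase, at 9.41 on the log2 scale over all arrays, *Xrcc1*, its scaffold, at 8.81, and the ligases *Lig3* at 8.60 and *Lig1* at 11.18. The strand-break sensors *Parp1* and *Parp2* stood at 11.54 and 10.13. *Fen1*, the flap nuclease of the long-patch route, and *Pcna*, the sliding clamp, also serve replication, and had means of 10.84 and 13.52. Among 17 S phase genes, the list that shares this role, 1 had a mean per genotype (5.88%, beside 14.9% of all named genes), the X-linked *Pola1*, the catalytic subunit of the primase-bound polymerase. Its mean intensity was 787 in WT and 1444 in *Alkbh1*-/- mESCs, a log2 difference of 0.88.

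**Figure D2:**
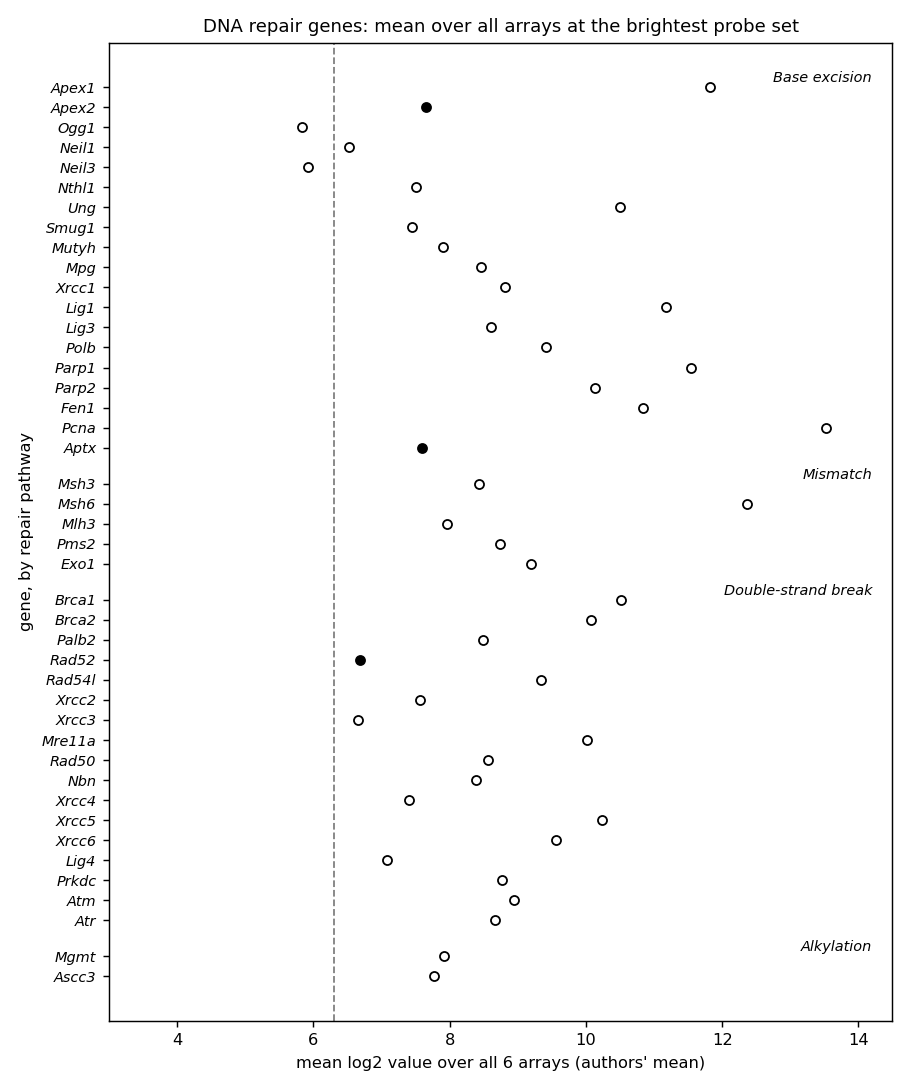
Each point is the authors' mean log2 value over all 6 arrays at the brightest probe set of a repair gene, grouped by pathway; filled points are the 3 genes with a mean per genotype and the dashed line is the median of the whole table, 6.31. All but *Ogg1* and *Neil3* lie to the right of the line, and levels are not comparable between genes.

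The 5 mismatch repair genes had no mean per genotype at their brightest probe sets, and with 14.9% of all named genes in the class comparison a count of 0 in so short a list says little. These genes encode the mismatch-binding subunits *Msh6* and *Msh3*, with means over all arrays of 12.36 and 8.43 on the log2 scale, the MutL-type subunits *Pms2* (8.74) and *Mlh3* (7.97), and the exonuclease *Exo1* (9.19). *Exo1* was the exception at another probe set. Its dimmest one (1430225_at, mean log2 value 3.89 over all arrays) read 10.8 in WT and 20.3 in *Alkbh1*-/- mESCs, a log2 difference of 0.91. Both intensities lie near the bottom of the range of the arrays, and the gene's 2 brighter probe sets were not in the class comparison.

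Among the 17 double-strand break genes, *Rad52* had a mean per genotype (5.88%, beside 14.9% of all named genes). RAD52 is a strand-annealing protein of homologous recombination, a part of the list in which 1 of 7 genes (14.3%) had such a mean. Its brightest probe set (1416602_a_at) read 123 in WT and 86.1 in *Alkbh1*-/- mESCs, a log2 difference of −0.51 and a fold of 1.42, again short of 1.5-fold. The other probe set of *Rad52* was not in the class comparison. For the other 6 genes of homologous recombination, the means over all arrays on the log2 scale were 10.51 for *Brca1* and 10.07 for *Brca2*, 8.48 for *Palb2*, which links these proteins, 9.34 for the translocase *Rad54l*, and 7.57 and 6.66 for the recombinase paralogs *Xrcc2* and *Xrcc3*.

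None of the remaining double-strand break genes (3 of end processing, 5 of end joining and 2 damage kinases) had a mean per genotype. Beside 14.9% of all named genes, a count of 0 in such short lists says little. *Mre11a*, *Rad50* and *Nbn* form the complex that senses and trims broken ends, and had mean log2 values over all arrays of 10.02, 8.56 and 8.39. For end joining these values were 10.23 for *Xrcc5* and 9.57 for *Xrcc6* (the Ku proteins that hold the ends), 8.77 for the kinase gene *Prkdc*, and 7.09 and 7.41 for *Lig4* and its partner *Xrcc4*. The damage kinases *Atm* and *Atr* were at 8.94 and 8.67. *Mgmt*, which lifts alkyl groups directly off guanine, was at 7.92, and *Ascc3*, a helicase that works with the AlkB homolog ALKBH3 on alkylated DNA, at 7.76. Neither of these 2 alkylation genes had a mean per genotype.

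Of 12 fibroblast genes, 5 had a mean per genotype (41.7%, beside 14.9% of all named genes), and these 5 were higher in WT mESCs, as *Aptx* and *Rad52* were, with a median log2 difference of −0.89. Their intensities in WT and *Alkbh1*-/- mESCs were 2052 and 954 for *Tagln*, and 2002 and 1087 for *Col3a1*. The other 7, among them *Fn1* with a mean log2 value of 12.06 over all arrays, had no mean per genotype at the brightest probe set. One of them, *Col1a2*, had a log2 difference of −1.06 at a dimmer probe set. In such bulk samples, fewer cells of a type and less RNA per cell cannot be told apart, and the part of fibroblast RNA in the values of *Aptx* and *Rad52* was not tested.

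Repair genes outside the list were examined as 5 further lists of 85 genes, of which 82 were measured and 5 (6.1%, beside 14.9% of all named genes) had a mean per genotype. *Cetn2*, whose product is a subunit of the damage sensor of nucleotide excision repair, was the only 1 of 22 genes of that pathway with a mean per genotype at its brightest probe set. It read 1172 in WT and 2053 in *Alkbh1*-/- mESCs, a log2 difference of 0.81, and 0.94 at its other probe set. *Cetn2* is X-linked.

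Of 13 measured genes of Fanconi anaemia and crosslink repair, 3 had a mean per genotype (23.1%, beside 14.9% of all named genes), a comparison that was not tested. *Fancb*, a core complex subunit and X-linked, read 144 in WT and 257 in *Alkbh1*-/- mESCs, a log2 difference of 0.84, and 1.02 at its other probe set. *Fancm*, the translocase that anchors this complex to DNA, read 187 and 278. Its log2 difference of 0.578 just missed 1.5-fold, which is 0.585 on that scale (fold 1.49). *Fancf*, another core subunit, went the other way, with 222 in WT and 127 in *Alkbh1*-/- mESCs and a log2 difference of −0.80. The pathway therefore held genes of both directions.

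*Trp53bp1* was the only 1 of 22 further double-strand break genes with a mean per genotype (4.55%, beside 14.9% of all named genes). Its product, 53BP1, guards broken ends from resection. The brightest probe set (1426956_a_at) read 1121 in WT and 714 in *Alkbh1*-/- mESCs, a log2 difference of −0.65 and a fold of 1.57. Of its 6 probe sets, 4 were in the class comparison, and the second brightest had a log2 difference of −0.53. The other 2 of these had −0.79 and −0.71, at intensities of 19.0 and 17.7 in WT and 11.0 and 10.8 in *Alkbh1*-/- mESCs, near the bottom of the range of the arrays. None of 9 translesion synthesis genes and none of 16 further base excision genes had a mean per genotype at the brightest probe set, lists too short for a count of 0 to say much beside that 14.9%. At dimmer probe sets, *Ercc4*, the gene of a nuclease subunit of nucleotide excision repair, had a log2 difference of 0.49, *Rad18*, a ubiquitin ligase that acts on stalled forks, had 0.48, and 2 probe sets of *Parp3* had −0.57 and −0.64.

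**Figure D3:**
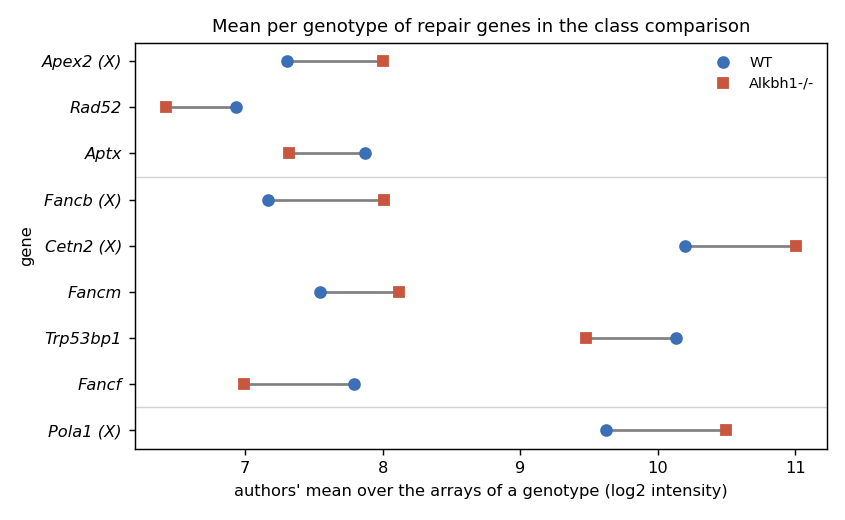
Circles and squares are the authors' mean log2 intensity in WT and *Alkbh1*-/- mESCs for the 8 repair genes and *Pola1* with a mean per genotype; (X) marks X-linked genes, and lines part the 3 genes of the main list from the other repair genes and from *Pola1*. The 4 X-linked genes and *Fancm* have the higher mean in *Alkbh1*-/- mESCs, and the other 4 in WT mESCs; no error can be drawn.

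All lists of repair genes together held 3 X-linked genes, *Apex2*, *Cetn2* and *Fancb*. Each of the 3 had a mean per genotype that was higher in *Alkbh1*-/- mESCs. Of all 527 X-linked genes, 284 (53.9%) had a mean per genotype, 263 of them higher in *Alkbh1*-/- mESCs. Of the 122 repair genes on other chromosomes, 5 (4.1%, beside 13.5% of all genes on neither X nor Y) had one, which was higher in *Alkbh1*-/- mESCs for 1, *Fancm*, and in WT mESCs for 4, *Aptx*, *Rad52*, *Fancf* and *Trp53bp1*. The log2 differences of these 8 genes ran from −0.80 to 0.84, while those of all genes with a mean per genotype ran from −5.65 to 7.90.

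**Figure D4:**
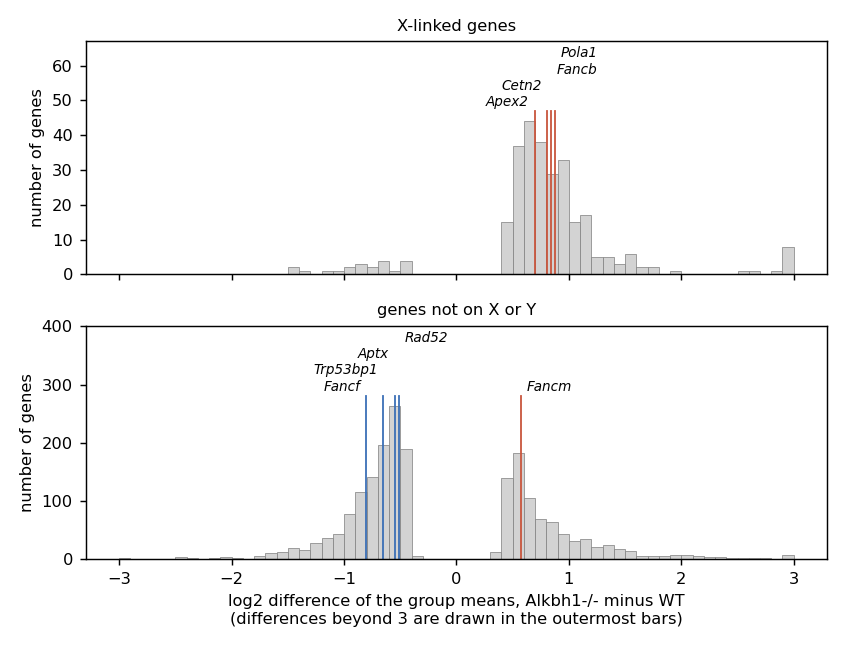
Histograms of the log2 difference of the group means, *Alkbh1*-/- minus WT, over the genes of the class comparison, for X-linked genes (top) and genes on neither X nor Y (bottom); vertical lines mark repair genes and *Pola1*. Most X-linked genes lie right of 0 with a median of 0.75, the 4 marked X-linked genes lie among them, and no gene lies around 0 because the smallest difference in the class comparison was 0.37.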

How the data were processed

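RNA from 3 WT and 3 *Alkbh1*-/- mESC samples was hybridised to Affymetrix whole-genome mouse arrays, and the authors normalized all arrays together with the RMA algorithm named in the submitters' processing notes. In the table of 33142 probe sets, the log2 values used are the deposited means over all arrays. In the class comparison, run by a company, the deposited intensity values are geometric means per genotype. Its header gives 7320 probe sets past a filter that it does not describe, listed at a nominal level of 0.05. The paper describes its class comparison by signals that never overlapped between the genotypes and a difference of at least 1.5-fold, marked as log2. It also names a t test with randomized variance and a correction for false discoveries. Its results text gives the fold without a scale, and here it was read as linear. Of the joined probe sets, 63.3% were past a linear fold of 1.5. Columns of the authors' own comparisons (fold changes, moderated statistics, p-values, log-odds) are held by both tables and were not used, so there is no test, error or replicate value.

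The class comparison stands beside misplaced identifiers: 8 of its entries carry their own. Each entry was therefore joined to the probe set whose mean over all arrays equals the mean of its log2 group means within 1e-06, among identifiers that the class comparison also lists. A single candidate was found for 4232 entries, several for 29 and none for 65, and 4257 of 4326 entries were joined. The class labelled as other than *Alkbh1*-/- is WT per the description deposited with the tables, which corrects its name. Of the probe sets, 28243 (85.2%) were named through RefSeq genes of assembly GRCm38.p6 by gene identifier, accession, symbol or class annotation. Differences are *Alkbh1*-/- minus WT, computed from the group means. The number of arrays limits precision.

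All members are named and, of each other repair list, the 3 genes with the largest difference of either sign at the brightest probe set, which took in every gene with such a value. Genes named beyond this (cell type markers, sex-linked genes, dimmer probe sets) were chosen after their values were seen or come from the marker lists. The members and lists were chosen with earlier results of these data known. An alternative without X-linked genes was added after seeing the data. Python 3.11.15, pandas 2.3.3, NumPy 2.4.6 and matplotlib 3.10.9 were used.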

Additional observations from a re-analysis of the deposited data

How the results depend on the processing

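The count of 3 repair genes with a mean per genotype became 4 with the mean over each gene's probe sets, which adds *Exo1*, stayed at 3 with a tolerance 10 times wider or narrower and for probe sets at or above the median, and was 2 without X-linked genes. The 1 gene past 1.5-fold and higher in *Alkbh1*-/- mESCs became 2 with the mean over probe sets, and 0 at a linear fold of 2, at a log2 difference of 1.5 and without X-linked genes. The count of genes past the fold mark and higher in WT mESCs was 0 in every setting. For base excision repair, the median log2 difference rests on 2 genes of opposite sign, *Apex2* and *Aptx*. It was 0.07, and 0.0515 with the mean over probe sets, 0.51 after centring, and −0.55 without *Apex2*. For double-strand break repair it is the value of *Rad52*, −0.51, and −0.0686 after centring. Centring also moved the log2 difference of *Apex2* from 0.70 to 1.14 and that of *Aptx* from −0.55 to −0.11. Mismatch repair had a value only with the mean over probe sets, 0.91 for *Exo1*. Centring subtracts −0.44, the median over all genes with a mean per genotype, a point that lies in 1 of the 2 groups of differences either side of 0, so that it moves with their sizes. Over the 4257 probe sets with such means the median had the opposite sign, 0.42, and centring on that value was not run. No paired analysis was possible because no values of single arrays were used and the columns carry no replicate numbers, and for the same reason no array could be left out.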
